A study of Homo sapiens and Mus musculus with 9 samples.

Results

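Squalene epoxidase (SQLE), the sterol 3-keto reductase HSD17B7 and 7-dehydrocholesterol reductase (DHCR7) are enzymes of cholesterol synthesis, and their ribosome footprints were followed in control, starved and transfected human cells. The 3 genes were chosen by name, out of 5745 gene symbols that the small RNA peak lists of the series pair with human transcripts, and each matched 1 transcript. Footprints (Ribo-seq, which sequences the mRNA pieces that ribosomes protect from nuclease) came from wild-type HEK293, a human embryonic kidney cell line. The 4 footprint libraries were an untreated control, starvation, and 2 libraries, here trans1 and trans2, of starved cells transfected with a trans-RNA, an RNA built to act on the coding frame of the mRNA for the stress regulator ATF4. Small RNA of HEK293 cells was profiled as 1 total and 1 cap-enriched library.

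Trans1 and trans2 carry one treatment label, which does not say whether they are repeats or carry different RNAs, so they were kept apart. What the cells were starved of, for how long, and whether the starvation library received a mock transfection are not given in the sources used here. Each condition had 1 library, so no difference below was tested, and the brackets give exact 95% binomial (Clopper-Pearson) intervals that cover counting error only. Over 10138 transcripts, 10614538 reads were recovered from the deposited control densities, 9340665 from starvation, 6103489 from trans1 and 7499972 from trans2. The line could be checked against few markers, since only genes with a small RNA peak carry a symbol. Of the HEK293 markers, NEFL and CDH2 had footprints in all 4 libraries, while none of the hepatocyte, leukocyte and fibroblast markers was among the measured genes.

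Cholesterol is made in the endoplasmic reticulum from acetyl-CoA by way of mevalonate, squalene and lanosterol. SQLE adds oxygen to squalene ahead of ring closure and is a rate-limiting enzyme of the pathway. HSD17B7 reduces the 3-keto group left after removal of the C4 methyl groups, and DHCR7 reduces 7-dehydrocholesterol to cholesterol, the last step of the Kandutsch-Russell branch. Genes of the pathway are classic targets of SREBP2, a membrane-bound transcription factor that is released when membrane sterol is low and that acts with NF-Y, which binds the CCAAT box, and with Sp1, which binds GC boxes.

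In RefSeq annotation on GRCh38.p14, HSD17B7 lies at chr1:162790702-162812823, on the plus strand, and DHCR7 at chr11:71427287-71449043, on the minus strand. The promoters of HSD17B7 and DHCR7 (RefSeq, GRCh38.p14, 250 bases before to 50 bases after the start) were searched on both strands. The motifs were the CCAAT box, the GC box GGGCGG, the E-box CACGTG and the sterol element TCACNCCAC. Footprints of SQLE were lower in the starvation library too, but the sources used here held no promoter of SQLE, so it was not searched. CCAAT was found in both promoters, in either orientation, and 34.6% of 35116 promoters hold it. The lines below give 30 bases, 5′ to 3′ on the strand of the gene, around the matches upstream of the start, with the match in capitals (ATTGG is CCAAT on the other strand). They lie at chr11:71448470-71448499 and chr11:71448424-71448453 for DHCR7 and at chr1:162790638-162790667 for HSD17B7.

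DHCR7 at -94: caggctcctcgaCCAATcacggggcgcgga
DHCR7 at -48: ggtccgcctccgATTGGcaggcaatcgctg
HSD17B7 at -52: tggcggactgagATTGGagggatcagctca

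A further CCAAT match of HSD17B7 lay 9 bases after the start, and the window of another listed start of DHCR7 held none of the motifs searched. The GC box also matched in both promoters and is held by 45.0% of all promoters. The E-box is held by 7.26% and the sterol element by 1.13% of promoters, and these letters are not in the windows of the 2 genes. A match is a stretch of letters only, and no binding was measured.

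Starved cells were first set against control cells. All 3 mRNAs carried fewer footprints in the starvation library than in the control, and HSD17B7 and DHCR7 were below the control by more than 2-fold. No RNA-seq of HEK293 was used here, so mRNA level and translation cannot be told apart in any value below. SQLE had 761, 363, 265 and 453 footprints in control, starvation, trans1 and trans2, which is 71.7, 38.9, 43.4 and 60.4 counts per 1000000 recovered reads (CPM). Control stood highest and the starvation and trans1 libraries were the low pair, with overlapping intervals. HSD17B7 had 258, 82, 50 and 93 footprints in the same order, or 24.3, 8.78, 8.19 and 12.4 CPM. Its control level was above the upper bound of every starved library. DHCR7 had 491, 179, 80 and 204 footprints, or 46.3, 19.2, 13.1 and 27.2 CPM. Only for DHCR7 did the trans1 interval (10.4 to 16.3 CPM) lie wholly below that of starvation (16.5 to 22.2 CPM).

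**Figure D1:**
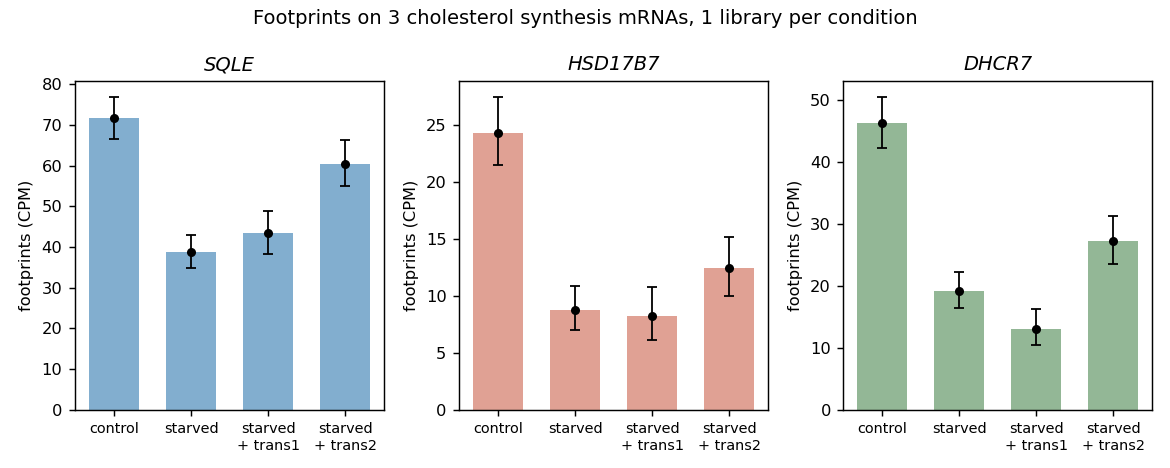
Footprints per 1000000 recovered reads (CPM, y axis from 0) for SQLE, HSD17B7 and DHCR7 in 4 libraries, 1 per condition (x axis). Bars and points are the level and whiskers its exact 95% interval of counting error; for each mRNA the control bar is highest and trans2 is above starvation.

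On the scale log2((CPM + 1)/(CPM + 1)), starvation against control, HSD17B7 was at -1.37 (-1.85 to -1.11), DHCR7 at -1.23 (-1.53 to -1.02) and SQLE at -0.87 (-1.07 to -0.70). In shares of the control level, SQLE kept 54.2% (47.7 to 61.5), DHCR7 41.4% (34.7 to 49.3) and HSD17B7 36.1% (27.8 to 46.5). The interval of SQLE overlaps that of DHCR7, and the intervals of DHCR7 and HSD17B7 overlap as well. Among all 10133 transcripts tested, 1.89% were at least 2-fold lower, 2.59% were at least 2-fold higher and 50.1% were below 0, with a median of -0.0015. The 3 genes were taken up with earlier results of these libraries known, so their place in that distribution is a description.

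Per kilobase of recovered coding length, which allows the genes to be compared, SQLE stood highest in control at 41.5 CPM per kb, DHCR7 followed at 32.3 and HSD17B7 at 23.6. The order of the levels was SQLE, DHCR7, HSD17B7 in all 4 libraries. In trans1 the last pair, at 9.16 (7.26 to 11.4) and 7.96 (5.91 to 10.5) CPM per kb, did not differ beyond counting error, whereas in the other libraries neighbouring intervals did not overlap. Totals also take in reads outside the coding region, so these are levels per coding kilobase and not coding densities.

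Transfected cells were set against starvation, to ask whether the trans-RNA changes footprints in starved cells, and both comparisons use the same starvation library. With trans2 all 3 mRNAs were higher than under starvation, with intervals above 0. SQLE was at 0.62 (0.43 to 0.84), DHCR7 at 0.48 (0.21 to 0.80) and HSD17B7 at 0.45 (0.05 to 0.94) on the log2 scale. None reached 2-fold. Of 10135 transcripts, 54.2% were above 0, 1.86% were at least 2-fold higher and 0.217% at least 2-fold lower. The median was 0.04.

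With trans1 the interval excluded 0 for DHCR7 only. DHCR7 was lower than under starvation, at -0.52 (-0.95 to -0.16). HSD17B7 at -0.089 (-0.64 to 0.42) and SQLE at 0.16 (-0.07 to 0.39) had intervals that include 0. In that comparison 58.7% of 10126 transcripts were below 0, 1.38% were at least 2-fold lower and 1.27% at least 2-fold higher, and the median was -0.08.

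In shares of the control level, SQLE reached 84.2% (74.8 to 94.8) in trans2 and 60.6% (52.5 to 69.7) in trans1. DHCR7 stood at 58.8% (49.7 to 69.4) and 28.3% (22.1 to 36.0), and HSD17B7 at 51.0% (39.8 to 64.9) and 33.7% (24.4 to 45.8). Every one of these intervals ends below 100%, so each enzyme was below the control library by more than counting error in both transfected libraries. Variation between libraries of the same condition is not covered by these intervals. Whether any enzyme had returned to the control level was therefore not tested.

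Set directly against trans1, which needs no starvation library, trans2 had a higher total of footprints on each enzyme. For SQLE the direction turned in the stop window, at -0.60 (-1.36 to 0.04; 44 reads in trans1 and 32 in trans2), and the start window gave 0.14 (-0.76 to 1.10). DHCR7 was at 0.999 (0.67 to 1.44), just under 2-fold with the pseudocount and 2.08-fold (1.59 to 2.72) without it. HSD17B7 was at 0.54 (0.09 to 1.12) and SQLE at 0.47 (0.25 to 0.70). The distribution over all transcripts was shifted upward too: the median was 0.11, 60.1% of 10133 transcripts were above 0 and 4.36% were at least 2-fold higher, against 0.977% at least 2-fold lower. After centring on that median the values were 0.89 for DHCR7, 0.43 for HSD17B7 and 0.36 for SQLE. The uncentred interval of HSD17B7 starts at 0.09, below the median of 0.11, while those of DHCR7 and SQLE start above it.

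**Figure D2:**
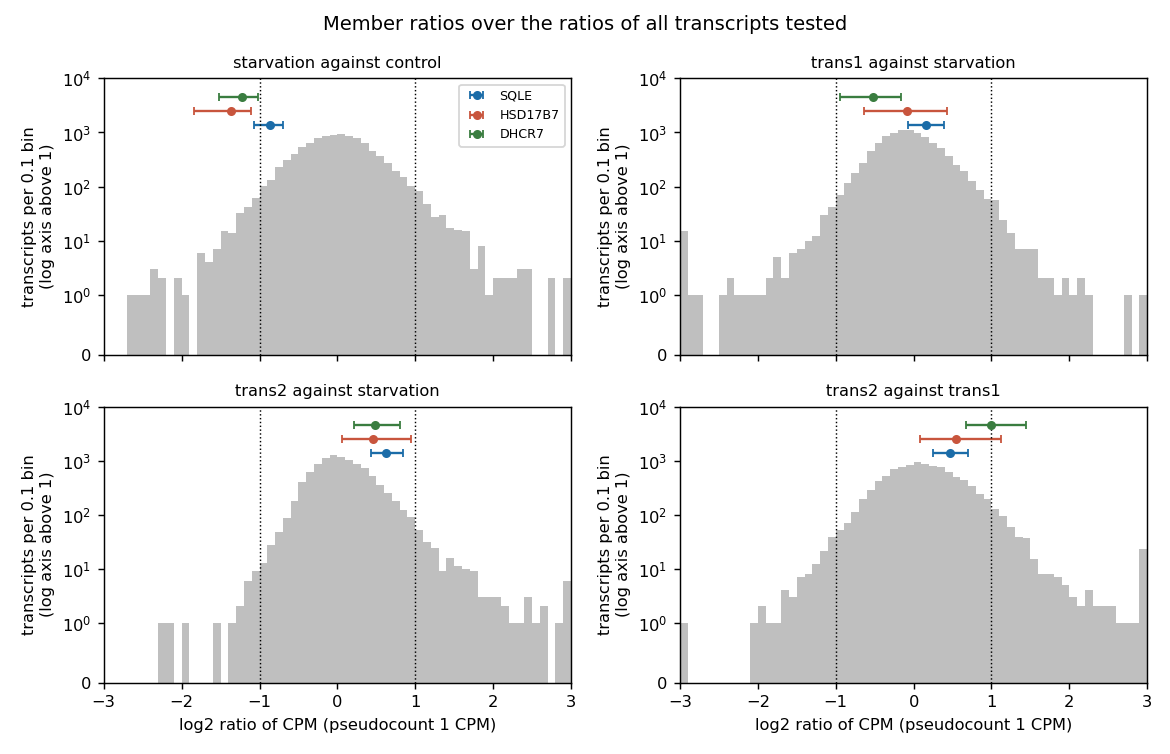
Log2 ratio of CPM (x axis, pseudocount 1 CPM) for all transcripts tested in each of 4 comparisons (grey bars, number of transcripts per bin, log axis above 1; the end bins also hold values beyond them), with SQLE, HSD17B7 and DHCR7 as points with 95% intervals of counting error, placed above the bars for legibility. Dotted lines mark 2-fold; HSD17B7 at -1.37 and DHCR7 at -1.23 lie beyond the left line for starvation against control.

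The other genes of the pathway were taken from lists of sterol and lipid genes. Of 24 listed cholesterol synthesis genes 5 could be measured, the 3 enzymes and a further pair. HMGCS1, the HMG-CoA synthase upstream of mevalonate, had 133, 83.0, 80.0 and 67.1 CPM in control, starvation, trans1 and trans2. ERG28, a scaffold of the enzymes that remove the C4 methyl groups, had 40.7, 30.4, 16.7 and 27.2 CPM. All 5 genes were below 0 under starvation, with a median of -0.87, or -0.54 for HMGCS1 and ERG28 alone. Of all transcripts tested, 50.1% were below 0.

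The further pair did not stand higher with trans2 than under starvation. HMGCS1 was at -0.30 (-0.47 to -0.14) against starvation and ERG28 at -0.16 (-0.43 to 0.10), where SQLE, DHCR7 and HSD17B7 were between 0.45 and 0.62. HMGCS1 was also the only gene of the 5 that was lower in trans2 than in trans1, at -0.25 (-0.44 to -0.07). With trans1, ERG28 had the lowest value of the list, at -0.83 (-1.20 to -0.53) against starvation, beyond DHCR7 at -0.52.

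Genes listed for sterol uptake, transport and efflux were lower under starvation as well. NPC1, which moves cholesterol out of lysosomes, was at -0.46 (-0.97 to -0.07), MYLIP, a sterol-induced ubiquitin ligase, at -0.53 (-1.04 to -0.15) and SCARB1, the HDL receptor, at -0.34 (-0.55 to -0.15). In trans1 against starvation NPC1 was at -0.72 (-1.57 to -0.17) and SCARB1 at -0.41 (-0.69 to -0.15), below 0 like DHCR7, while MYLIP was at 0.23 (-0.28 to 0.80). In trans2 against starvation the 3 genes were at 0.08, 0.41 and 0.04 for NPC1, MYLIP and SCARB1, with intervals that include 0.

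Of 12 listed symbols of sterol sensing, with MARCHF6 also under its former symbol MARCH6, 4 were measured. Under starvation 3 of them were below 0, with a median of -0.21, where 50.1% of all transcripts were below 0. Among these 3, MBTPS1 was at -0.03 (-0.18 to 0.12), an interval that includes 0. INSIG1, which holds the SREBP complex in the endoplasmic reticulum, was lowest at -0.52 (-0.71 to -0.36), and MARCHF6, a ubiquitin ligase that directs breakdown of SQLE protein, was highest at 0.12 (-0.01 to 0.26). INSIG1 followed the signs of DHCR7, at -0.75 (-1.04 to -0.51) in trans1 and 0.36 (0.18 to 0.56) in trans2, both against starvation. MARCHF6 was at 0.57 (0.43 to 0.71) in trans1 and 0.01 (-0.14 to 0.16) in trans2.

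Fatty acid synthesis, which SREBP factors also control, had 6 of 16 listed genes measured. All 6 were below 0 under starvation, with a median of -0.41, from SCD, the stearoyl-CoA desaturase, at -0.88 (-1.02 to -0.77) to HSD17B12 at -0.15 (-0.24 to -0.07). In trans2 against starvation 2 of 6 were above 0, with a median of -0.14, where 54.2% of all transcripts were above 0. FADS1, a fatty acid desaturase, was highest at 0.41 (0.30 to 0.53). HSD17B7 belongs by name to the 17beta-hydroxysteroid dehydrogenases, of which 11 others were listed and 4 measured. Under starvation 3 of the 4 were above 0, each with an interval that includes 0, and HSD17B12 was below 0. Over all transcripts 50.1% were below 0. The median of the 4 was 0.14, where HSD17B7 was at -1.37. Of the measured genes of isoprenoid use, a branch from mevalonate, NUS1 was at 0.13 (0.0014 to 0.27) and PGGT1B at 0.0011 (-0.27 to 0.27). These lists were chosen with results of these data known, and their members share 1 starvation library.

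**Figure D3:**
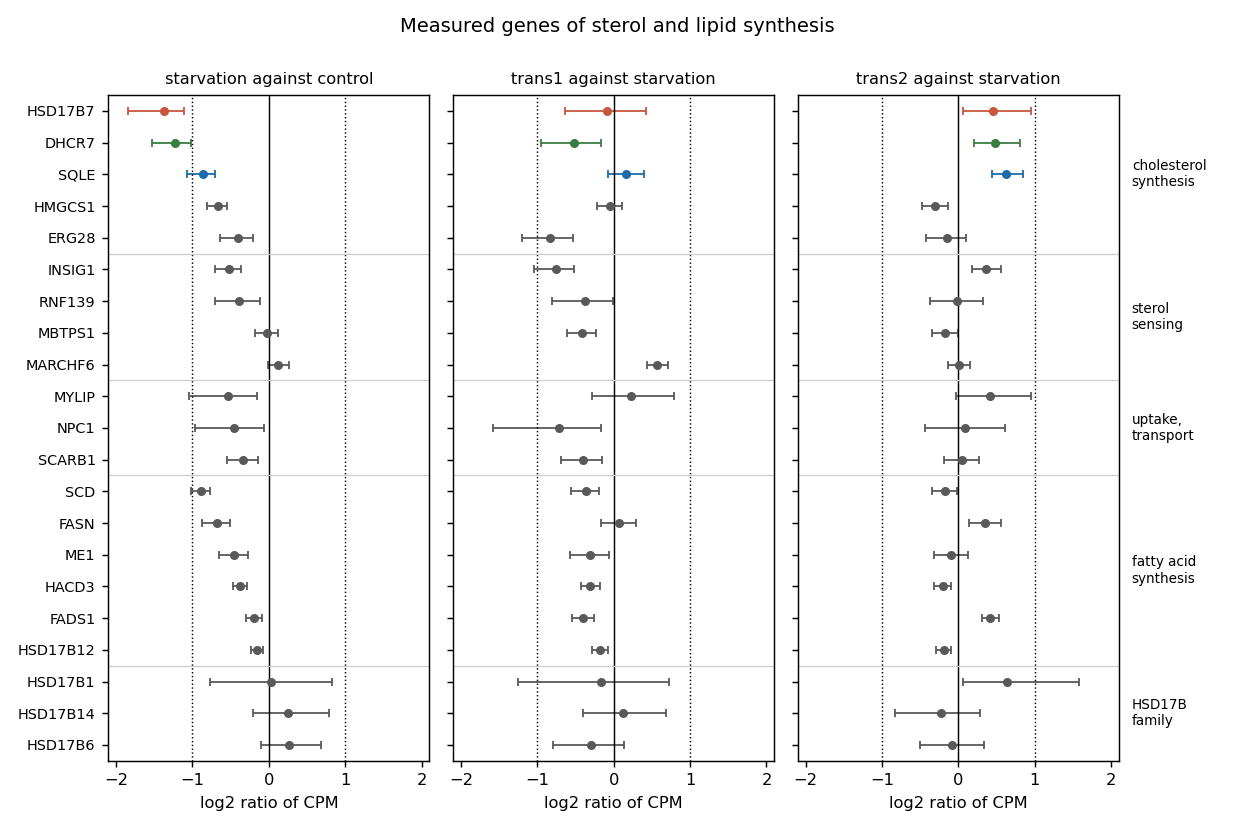
Log2 ratio of CPM (x axis, pseudocount 1 CPM) of each measured gene of 5 lists (y axis, gene names, list names at right; only genes reported here are drawn, and HSD17B12 once, under fatty acid synthesis), in 3 comparisons, with whiskers for 95% intervals of counting error and dotted lines at 2-fold. SQLE, HSD17B7 and DHCR7 are coloured; in the right panel they lie above 0 while HMGCS1 is at -0.30.

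Likeness to the mean profile of the 3 enzymes was measured as the Euclidean distance between log2(CPM + 1) values centred on each transcript's mean over the 4 libraries, among 2700 named transcripts with at least 10 CPM in some library. The 5 nearest were AKIRIN2 (distance 0.12), LGALS3BP (0.13), PEF1 (0.13), TRMT61A (0.13) and TMEM199 (0.16). AKIRIN2, a nuclear factor, had 67.8, 33.3, 28.0 and 43.6 CPM in control, starvation, trans1 and trans2. ERG28 ranked 247 and HMGCS1 ranked 492, so the pathway partners were not the nearest profiles. With 4 libraries the ranking rests on 4 values per gene.

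The deposited densities also show where the footprints lie, in a window of 30 nt before to 300 nt after the start codon and from 300 nt before to 30 nt after the stop codon. Recovered coding lengths were 1029 nt for HSD17B7, 1431 nt for DHCR7 and 1728 nt for SQLE, so reads in the middle of each mRNA, and in untranslated regions beyond the windows, enter the totals alone. Over all transcripts, the highest position before the start codon was -12 and the highest before the stop codon -18 in every library. Frame and position shares given for all transcripts, here and below, use the 8161 with at least 600 nt from start to stop codon. In control, reads of the members in frame with those positions made up 82.4% for HSD17B7, 86.6% for DHCR7 and 83.8% for SQLE. All transcripts had 85.8% in that library. SQLE in trans1 was lower, with 40 of 60 reads or 66.7% (53.3 to 78.3), where all transcripts had 82.2%. DHCR7 in starvation was higher, at 95.2% with a lower bound of 86.7%, where all transcripts had 86.5%. Every other interval of the members included the value of all transcripts in its library. The cause of these departures was not tested.

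SQLE had a pile of footprints at position -18, which is also the highest position before the stop codon over all transcripts. The position alone does not place these ribosomes ahead of the stop codon. At position -18 there were 16, 19, 19 and 12 reads in control, starvation, trans1 and trans2, out of 63, 28, 44 and 32 reads in the stop window. That is 25.4% (15.3 to 37.9), 67.9% (47.6 to 84.1), 43.2% (28.3 to 59.0) and 37.5% (21.1 to 56.3) of the window. Over all transcripts the same position held 4.34%, 4.11%, 4.57% and 3.62%. In starvation SQLE's share was above that of 99.8% of 5325 transcripts with at least 20 reads in the window. HSD17B7 and DHCR7 had 0 reads at -18 in each library, which allows up to 5.21% for HSD17B7 and 5.52% for DHCR7 in control, the deepest library.

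The 2 components of the SQLE stop window went apart under starvation, a split chosen after the values were seen. Position -18 held 1.51 CPM (0.86 to 2.45) in control and 2.03 CPM (1.22 to 3.18) in starvation, a log2 ratio without pseudocount of 0.43 (-0.61 to 1.49). The other positions of the window held 47 reads in control and 9 in starvation, a ratio of -2.20 (-3.41 to -1.15). These other positions held 25 reads in trans1 and 20 in trans2, or 2.09 (0.94 to 3.37) and 1.47 (0.27 to 2.79) against starvation. In trans1, 9 of those 25 reads lay at position -17, beside the pile. Fewer than 50 reads stand behind each of these values.

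**Figure D4:**
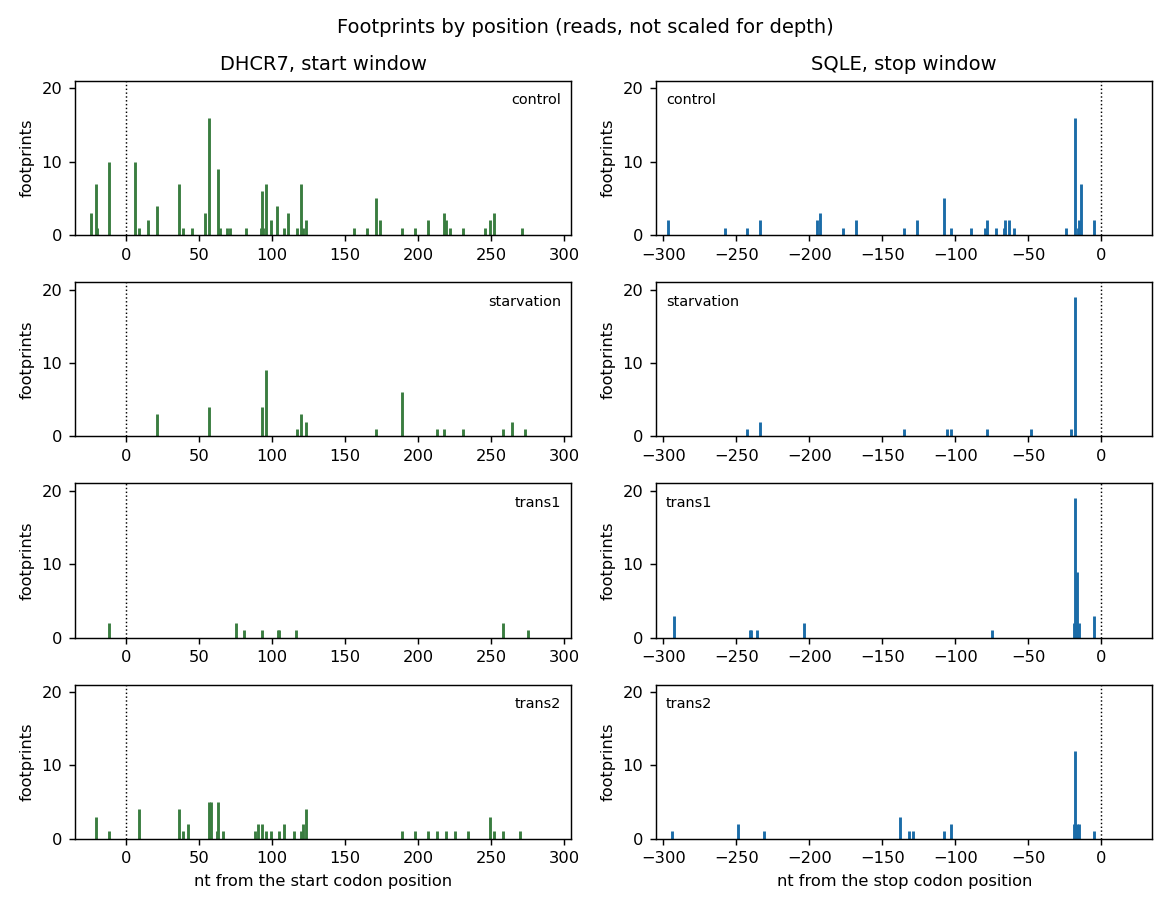
Footprints by position in 4 libraries (rows), as recovered reads not scaled for depth (y axis, same range throughout), for DHCR7 in nt from the start codon (left) and SQLE in nt from the stop codon (right); dotted lines mark the codon position. The tall line at right is position -18 of SQLE with 16, 19, 19 and 12 reads, and at left the first 100 nt of DHCR7 hold 75, 20, 4 and 35 reads.

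SQLE had a small part of its footprints in the windows. The coding parts of both windows held 15.4%, 13.2%, 22.6% and 12.1% of its reads in control, starvation, trans1 and trans2, where an even spread over the coding region would put 34.8%. Among transcripts with at least 50 reads, the percentage with a lower share relative to an even spread was 6.08%, 6.85%, 26.2% and 3.73% in the same order of libraries, so that SQLE stood closer to the middle of the transcripts in trans1. The corresponding shares were 41.9% for HSD17B7 and 37.9% for DHCR7 in control, against 58.6% and 42.1% for an even spread.

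DHCR7 footprints were concentrated near the start codon. The first 100 nt held 36.2% (29.7 to 43.2) of its window reads in control, 31.7% (20.6 to 44.7) in starvation, 12.9% (3.63 to 29.8) in trans1 and 34.0% (24.9 to 44.0) in trans2. Over all transcripts that segment held 14.5%, 14.3%, 15.7% and 15.9%. Trans1, with 4 of 31 reads, was the library in which DHCR7 stood near the level of all transcripts, and it is also the library with fewest DHCR7 reads.

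HSD17B7 stood out before its start codon. The 30 nt before it held 17.6% (11.5 to 25.2) of its window reads in control, 19.6% (9.82 to 33.1) in starvation, 20.8% (7.13 to 42.2) in trans1 and 14.8% (6.98 to 26.2) in trans2. All transcripts had between 3.53% and 4.46% there. In control 8 of these 23 reads lay at -12, the highest position before the start codon over all transcripts. That was 12.9% (5.74 to 23.9) of the start-window reads, against 2.07% over all transcripts. The segment is therefore not a measure of footprints upstream of the start codon alone. The places varied: in starvation 5 of 10 reads lay at -28, and in trans1 all 5 lay at -20. Near the stop codon, HSD17B7 reads gathered between -129 and -120, with 37 of 69 stop-window reads in control, 7 of 26 in starvation, 5 of 14 in trans1 and 21 of 41 in trans2. That is 53.6% (41.2 to 65.7), 26.9% (11.6 to 47.8), 35.7% (12.8 to 64.9) and 51.2% (35.1 to 67.1), a stretch picked after the values were seen.

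The start window, the stop window and the remaining reads of an mRNA are separate sets of footprints, and each was scaled to its own sum over transcripts. Under starvation all 9 values, 3 sets for each of 3 enzymes, were below 0 with intervals that exclude 0. They ran from -1.79 (-2.49 to -1.29) for HSD17B7 outside the windows to -0.85 (-1.05 to -0.66) for SQLE outside the windows. In trans2 against starvation all 9 were above 0, though 5 intervals include 0.

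For DHCR7, trans2 against starvation was at 0.93 (0.41 to 1.61) in the start window and 1.08 (0.43 to 2.01) in the stop window. Outside them it was at 0.04 (-0.36 to 0.44), an interval that narrowly overlaps both. The difference between the sets of footprints was not tested. SQLE was at 0.57 in the start window, 0.54 in the stop window and 0.57 (0.36 to 0.79) outside. HSD17B7 was at 0.020 (-0.90 to 0.93) in the start window and 0.96 (0.32 to 1.83) in the stop window.

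In trans1 against starvation DHCR7 was at -0.999 (-2.22 to -0.20) in the start window, 0.28 (-0.64 to 1.26) in the stop window and -0.61 (-1.14 to -0.13) outside. SQLE was at 1.14 (0.53 to 1.99) in the stop window, the window with the pile, and at -0.02 (-0.29 to 0.23) outside. DHCR7 had the widest step between the transfected libraries in the start window, from 12 reads in trans1 to 63 in trans2, at 1.93 (1.25 to 3.18).

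**Figure D5:**
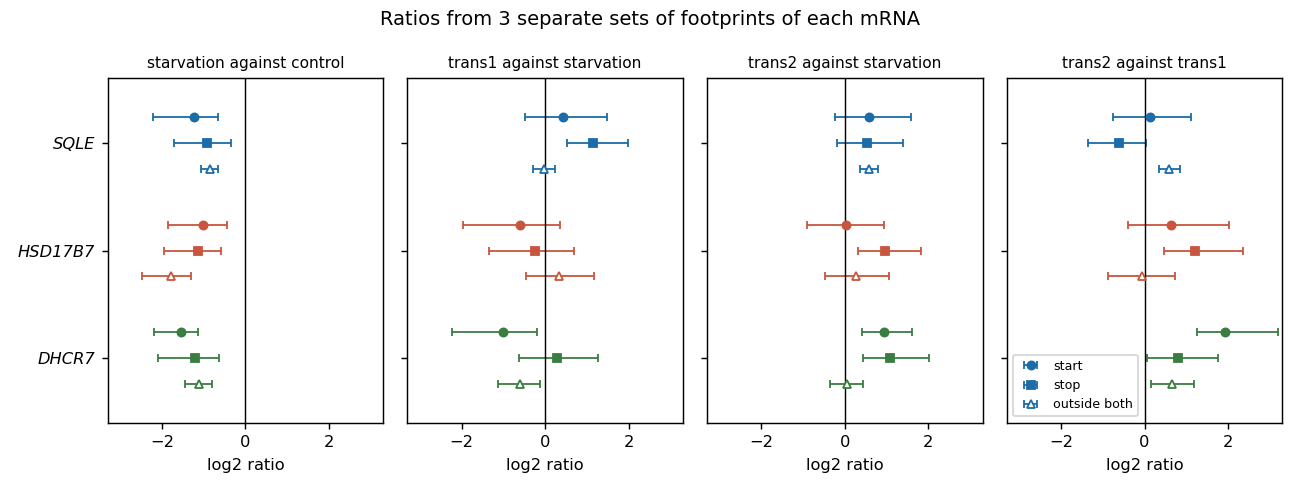
Log2 ratio (x axis, pseudocount 1) of footprints in the start window (circles), the stop window (squares) and outside both (open triangles) for SQLE, HSD17B7 and DHCR7 (y axis) in 4 comparisons, with 95% intervals of counting error. All 9 points lie left of 0 for starvation against control, and DHCR7 in the start window is at 1.93 for trans2 against trans1.

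The small RNA lists hold 4 peaks on the 3 mRNAs, and the counts are those of the authors' lists, 1 library each. HSD17B7 had 2 peaks in the cap library, sense to the mRNA, 68 and 62 nt before the start codon, with counts of 6 and 14. Both lie in the 5′ untranslated region, where 61.7% of the 4521 sense peaks of the cap library lie. The count of 14 was above that of 75.6% of these peaks. DHCR7 had 1 antisense peak and SQLE 1 sense peak in the total library, each with a count of 4, the lowest value listed. The lists place them 1751 and 1775 nt from the start codon and label them as coding. The stop codon position, taken as the recovered coding length less 3 nt, comes before these places, by 323 nt for DHCR7 and 50 nt for SQLE. The same held for 209 of 2371 peaks labelled as coding with a recovered length, and which of the sources is off was not settled.

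The authors' deposited table of log2 fold values names none of the 3 main reading frames, and lists 1 internal frame of SQLE. In the authors' deposited table that frame was at -0.33 for starvation against control, -0.53 for trans1 against starvation and -0.33 for trans2 against starvation. The medians of all 41748 frames in the authors' deposited table were -0.08, -0.39 and -0.19, and 29.6%, 35.7% and 36.0% of the frames stood lower. SQLE lies on chromosome 8. Reads of HSD17B7 cannot be separated here from those of HSD17B7P2, a transcribed pseudogene on chromosome 10, if the authors' alignment shared them. At the 5′ end DHCR7 overlaps the noncoding gene DHCR7-DT, and the sources used here do not say whether counting used strand.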

How the data were processed

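Footprint files hold, per transcript and position, a density signal that the authors deposited; from its values it equals reads times coding length over the transcript's reads. bcl2fastq 2.20.0.422, cutadapt 2.8, Bowtie 1.2.3, STAR 2.7.10a and the build GRCm39 are named in the submitters' processing notes, without roles; the transcripts are human, and no source used here gives a human build. Peak counts and log2 fold values are as deposited by the authors, per the file headers.

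Within a transcript and library all density values are whole multiples of 1 step. Ratios of steps between libraries gave reads and coding length for 10138 of 16984 transcripts, 2867 of them with a symbol, using libraries with reads at 8 or more positions. Where the window reads exceeded the total, a multiple of the length was taken. In 360 of 363 short transcripts that could be checked the total exceeded the coding reads, so it includes reads outside the coding region. CPM used the sum of recovered reads. Ratios used a pseudocount of 1 CPM and transcripts with at least 1 CPM in either library, and intervals used reads without a pseudocount. The script was tested on simulated data. Python 3.11.15, numpy 2.4.6, pandas 2.3.3, scipy 1.17.1 and matplotlib 3.10.9 were used.

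Named genes were the 3 members, every measured gene of the cholesterol synthesis list, the lowest and highest of each other list, and the 5 nearest profiles; SQLE's position -18, HSD17B7's stretch and the other genes named from lists were picked after their values were seen. The members and lists were chosen with earlier results of these data known. A few listed genes are not reported here. Tables of predicted frames with mouse identifiers and liver values were not used here. Alternatives covered pseudocount, centring, library size, windows, fold, filter and recovery.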

Additional observations from a re-analysis of the deposited data

Results flagged for a closer look

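For 2 enzymes the trans1 and trans2 libraries lay on opposite sides of the same starvation library, and this difference between the transfected libraries was not tested, since each is 1 library. HSD17B7 was at -0.089 in trans1 and 0.45 in trans2, on the log2 scale against starvation. DHCR7 was at -0.52 in trans1 and 0.48 in trans2. The median of all transcripts in trans1 against starvation was -0.08. After centring on that median HSD17B7 was at -0.0098 and DHCR7 at -0.44 in trans1. For DHCR7 both intervals of counting error exclude 0, and for HSD17B7 that of trans1 includes 0.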

How the results depend on the processing

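No paired analysis was possible because each group held 1 library. Planned but not run was the coding length from RefSeq proteins. Centring, median-of-ratios library sizes, a pseudocount of 0.1 CPM and leaving out the highest position moved no member value by more than its counting interval. With a pseudocount of 5 CPM HSD17B7 was at -1.09 for starvation against control. The start window alone gave, for starvation against control, HSD17B7 -1.01, DHCR7 -1.55 and SQLE -1.24; for trans1 against starvation, DHCR7 -0.999 and SQLE 0.43; for trans2 against starvation, HSD17B7 0.020, DHCR7 0.93 and a median of 0.020 over the 5 measured enzymes; for trans2 against trans1, DHCR7 1.93 and SQLE 0.14. The stop window alone reversed DHCR7 in trans1 against starvation, to 0.28, and SQLE in trans2 against trans1, to -0.60. It gave SQLE 1.14 for trans1 against starvation, HSD17B7 0.96 and DHCR7 1.08 for trans2 against starvation, and HSD17B7 1.21 for trans2 against trans1. Without the highest position of each window the start window's share of SQLE window reads in starvation was 62.5%, not 41.7%. With peaks of at least 10 only, 1 of the 4 small RNA peaks stayed. The cause of these shifts was not tested.

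Transcripts at least 2-fold lower and higher numbered 192 and 262 for starvation against control, 140 and 129 for trans1 against starvation, 22 and 189 for trans2 against starvation, and 99 and 442 for trans2 against trans1. In that order of comparisons, a pseudocount of 5 CPM gave 85 and 118, 30 and 34, 5 and 72, and 47 and 191. The start window alone gave 844 and 540, 870 and 540, 211 and 908, and 369 and 1703. The stop window alone gave 946 and 644, 1116 and 550, 303 and 957, and 374 and 1927. A threshold of 1.5-fold gave 1022 and 1037, 844 and 632, 218 and 872, and 558 and 1724. Recovery from 20 or more positions, which tests fewer transcripts, gave 118 and 138, 49 and 38, 5 and 82, and 45 and 271. A pseudocount of 0.1 CPM gave 214 lower for trans1 and 38 lower for trans2 against starvation. Centring gave 156 lower, and median-of-ratios sizes 155 lower, for trans2 against trans1. Between 50 and 258 reads stand behind each HSD17B7 total, and with 1 library per condition the variation between samples is not covered by any interval.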

Other observations

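Small RNA peaks also lay on other mRNAs of the pathway, outside the comparisons above. TM7SF2, a sterol reductase of the pathway, had a sense peak of count 6 in the cap library, 144 nt before the start codon, and an antisense peak of count 11 in the total library. HMGCS1 had 1 sense peak of count 7 and ERG28 1 antisense peak of count 4, both in the 3′ untranslated region and in the total library. Footprints of TM7SF2 were not analysed here.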
